A study of Mus musculus with 4 samples.

Results

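The genes described here are 10 flow-responsive genes of the endothelium, *Klf2*, *Klf4*, *Piezo1*, *Heg1*, *Thbd*, *Nos3*, *Edn1*, *Ece1*, *Ednra* and *Ednrb*, of the 32285 genes counted in single-cell RNA sequencing of the embryonic mouse ventricle. They were chosen by name, as the rows with these symbols, and all 10 were found. Ventricles were taken at embryonic day 14.5 from *Ets1* eKO embryos (*Tie2*Cre;*Ets1* fl/fl), in which Cre recombinase under the *Tie2* promoter acts on both floxed alleles of *Ets1*, and from control embryos (*Tie2*Cre;*Ets1* fl/+), which carry the same Cre and have 1 floxed allele. Embryos of both groups were untreated, and all 4 libraries carry the same batch label. Each group had 2 libraries, each made from 3 pooled ventricles, so that the library and not the cell was the replicate, and nothing in the labels said whether pools shared a litter. The *Tie2* promoter is active in endothelium and endocardium and also in blood-forming lineages. The 37913 cells kept were sorted into classes by marker genes, which did not include any of the 10 genes. The names mural endocardium (4301 cells), valve endocardium (539 cells) and coronary endothelium (1495 cells) refer to these marker gates. A level is given as the unique molecular identifiers (UMIs) of a gene per 1000000 UMIs of the class in that library (CPM).

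Endothelial cells sense the drag of moving blood through channels and junctional complexes. Laminar flow activates a kinase route that ends in MEF2 factors and induces *Klf2* and *Klf4*, zinc-finger transcription factors that keep endothelium quiescent. Their known targets include *Nos3*, the endothelial nitric oxide synthase, and *Thbd*, which encodes the anticoagulant thrombin receptor thrombomodulin, both raised by flow, and *Edn1*, which encodes the vasoconstrictor peptide endothelin 1 and is lowered by sustained flow. *Piezo1* encodes a stretch-activated cation channel of the plasma membrane. *Heg1* encodes a transmembrane receptor that recruits the cerebral cavernous malformation (CCM) proteins, which restrain *Klf2* and *Klf4* in the endocardium. *Ece1* encodes the protease that releases active endothelin, and *Ednra* and *Ednrb* encode the endothelin receptors. In the embryonic heart, *Klf2* is known to mark endocardium exposed to fast or oscillating flow, as over the valve cushions.

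The genes and the sequence before their starts are given for orientation. In the GENCODE annotation of GRCm38, *Klf2* lies at chr8:72319033-72321656 (+ strand), *Klf4* at chr4:55527143-55532466 (-), *Piezo1* at chr8:122481698-122551329 (-), *Heg1* at chr16:33684370-33771576 (+), *Thbd* at chr2:148404466-148408188 (-), *Nos3* at chr5:24364810-24384474 (+), *Edn1* at chr13:42301476-42307990 (+), *Ece1* at chr4:137862237-137965229 (+), *Ednra* at chr8:77663031-77724464 (-) and *Ednrb* at chr14:103814625-103844402 (-). All are protein-coding, and the annotated protein-coding genes that overlap them (*Ctu2* and *Gm20388* at *Piezo1*, *Atg9b* at *Nos3*) are on the other strand. Promoters of 8 of the 10 genes were found in RefSeq (GRCm38.p6), with *Thbd* and *Nos3* without an entry. The 250 bases before the start are shown 5′ to 3′ on the gene's strand for the regulators *Klf2* and *Klf4*, for *Piezo1*, which was called in mural endocardium, and for *Edn1*, with GGAA or its complement TTCC, the core that ETS factors such as ETS1 bind, in capitals. The GENCODE gene begins before the RefSeq start for *Klf2*, at 72319033 within the window shown, and for *Ednrb*. For *Ednrb* only 30 bases are shown, from 100 to 71 bases before the RefSeq start. A second match of the core lies outside them, 132 bases before that start.
*Klf2*, chr8:72318812-72319061 (+): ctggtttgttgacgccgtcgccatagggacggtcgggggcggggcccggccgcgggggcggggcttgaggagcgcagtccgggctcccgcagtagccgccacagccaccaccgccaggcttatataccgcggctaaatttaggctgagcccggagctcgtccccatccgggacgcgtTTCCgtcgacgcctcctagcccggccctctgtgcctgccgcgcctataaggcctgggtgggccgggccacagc
*Klf4*, chr4:55532476-55532725 (-): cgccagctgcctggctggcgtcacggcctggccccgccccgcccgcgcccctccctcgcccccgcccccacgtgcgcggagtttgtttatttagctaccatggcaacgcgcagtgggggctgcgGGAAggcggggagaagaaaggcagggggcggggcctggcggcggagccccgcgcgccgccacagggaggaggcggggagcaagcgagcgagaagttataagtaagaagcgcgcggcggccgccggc
*Piezo1*, chr8:122551330-122551579 (-): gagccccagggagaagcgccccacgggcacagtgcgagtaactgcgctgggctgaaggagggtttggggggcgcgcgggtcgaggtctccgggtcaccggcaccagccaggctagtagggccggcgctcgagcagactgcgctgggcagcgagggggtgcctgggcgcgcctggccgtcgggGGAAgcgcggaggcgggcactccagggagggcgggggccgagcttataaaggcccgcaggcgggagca
*Edn1*, chr13:42301226-42301475 (+): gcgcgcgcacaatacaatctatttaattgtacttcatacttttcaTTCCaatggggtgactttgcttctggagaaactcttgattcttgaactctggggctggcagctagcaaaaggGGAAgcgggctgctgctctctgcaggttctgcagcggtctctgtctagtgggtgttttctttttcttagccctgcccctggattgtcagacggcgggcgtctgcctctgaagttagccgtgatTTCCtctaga
*Ednrb*, chr14:103843772-103843801 (-): acacgcaccctccccagtctGGAAcacccc

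All 8 genes with an entry held GGAA or TTCC before at least 1 start, which is no distinction, since 93.4% of the 32851 promoters in the table did. The core occurred once in the windows of *Klf2*, *Klf4* and *Piezo1* and 3 times in that of *Edn1*. CACCC or GGGTG, which Krüppel-like factors bind, was before at least 1 start of 6 of the 8 genes and in 52.0% of all windows. These are matches of letters and not measured binding.

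The targeted gene was measured first. *Ets1* held 285 and 263 CPM in mural endocardium of the control libraries against 121 and 95.5 CPM in the eKO libraries, a log2 fold change of -1.29 (SE 0.14, adjusted p = 0.000793, edgeR quasi-likelihood test). It fell by 1.22 on the log2 scale in valve endocardium (SE 0.19, adjusted p = 0.0023) and by 1.08 in coronary endothelium (SE 0.18, adjusted p = 0.0182). In coronary cells without a *Mki67* or *Top2a* UMI, the log2 fold change of *Ets1* was -0.88 (SE 0.22, adjusted p = 0.0775). Outside the endothelial classes *Ets1* was not called. In fibroblasts or mesenchymal cells it held 92.7 and 86.7 CPM in control against 58.0 and 55.0 CPM in eKO (log2 -0.58, SE 0.12, adjusted p = 0.169). In cardiomyocytes it held 6.59 and 6.40 CPM against 9.09 and 8.93 CPM (log2 0.59, SE 0.13, adjusted p = 0.402). In the other classes its groups overlapped. The sources used here do not give the exons that were floxed, so UMIs at the 3′ end may also come from the recombined allele. Libraries differed in depth: the lowest median was 5328 UMIs per kept cell, in eKO replicate 2, and the highest was 8732 in control replicate 1. Pairs of libraries shared 16 to 32 cell barcodes, at most 0.383% of the smaller library.

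Both flow-induced regulators were highest in valve endocardium. The level of *Klf2* in valve endocardium was 2011 and 1259 CPM in controls, against 1608 and 1619 CPM after loss of *Ets1*. In mural endocardium it was 583 and 424 CPM for control, against 348 and 415 CPM for eKO, and in coronary endothelium 286 and 249 CPM against 202 and 237 CPM. The valve range lay above the range of every other class, and the mural range lay above the coronary range. Fitted over all 4 libraries with library as a term, *Klf2* was 3.55-fold higher in valve than in mural endocardium (log2 1.83, SE 0.10, adjusted p = 6.02e-10) and 1.61-fold higher in mural endocardium than in coronary endothelium (log2 0.69, SE 0.06, adjusted p = 1.05e-07). *Klf4* held 525, 268, 553 and 291 CPM in valve endocardium of control replicates 1 and 2 and eKO replicates 1 and 2. It was 6.84-fold higher there than in mural endocardium (log2 2.77, SE 0.17, adjusted p = 3.59e-09), where its range over the libraries was 42.8 to 82.1 CPM.

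**Figure D1:**
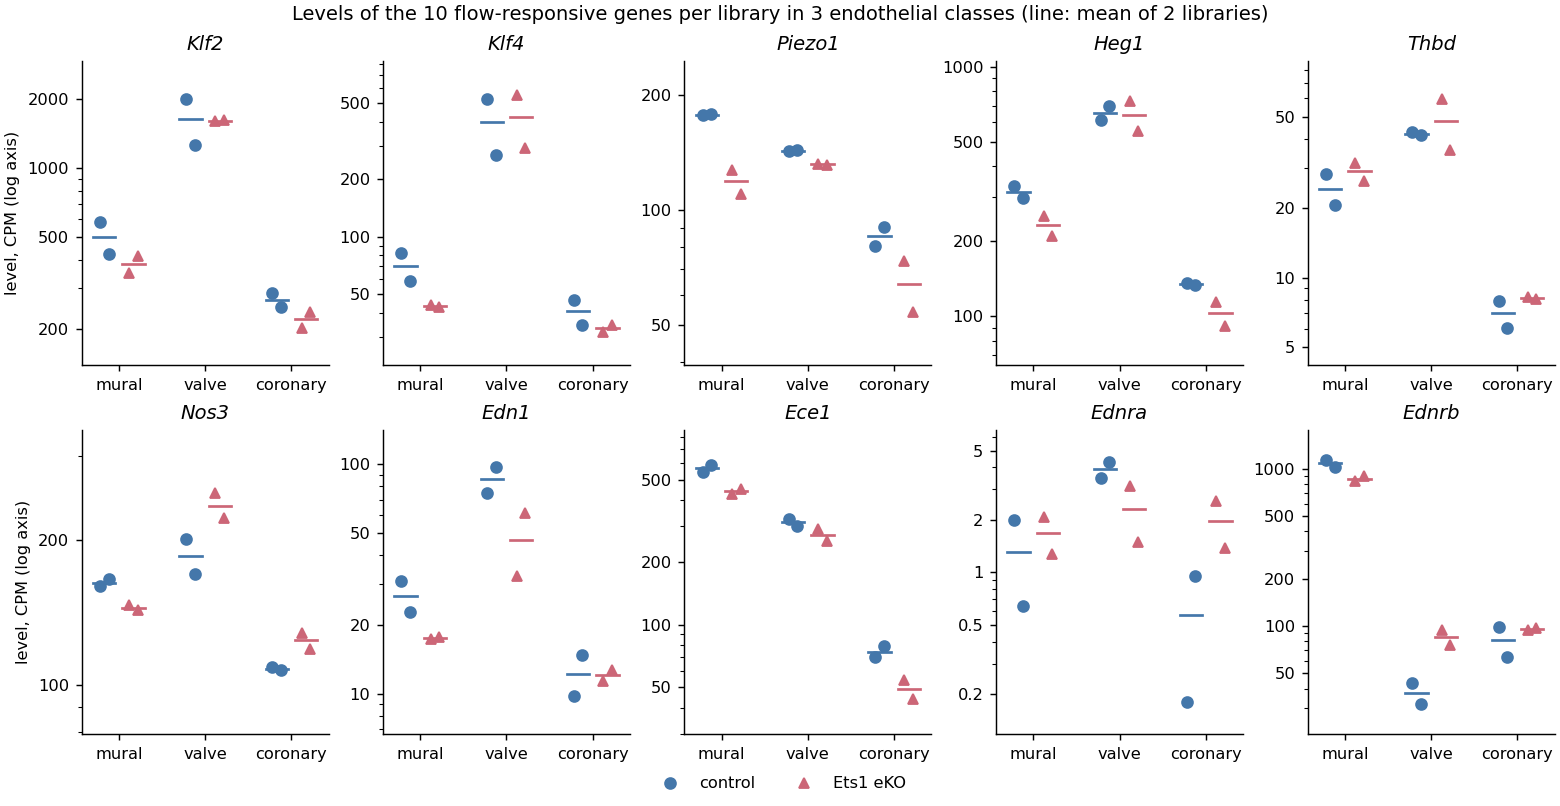
Level of each of the 10 genes in CPM (log axis) in mural endocardium, valve endocardium and coronary endothelium. Circles are the 2 control libraries, triangles the 2 *Ets1* eKO libraries, and lines their means. *Klf2*, *Klf4*, *Heg1* and *Edn1* are highest in the valve class and *Ednrb* and *Ece1* in the mural class.

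Among the 10 genes, 6 were higher and 2 lower in valve than in mural endocardium, against 15.6% and 14.8% of the 12601 genes tested. Beside both regulators, the genes higher in the valve class were *Edn1* (2.84-fold, log2 1.51, SE 0.17), *Heg1* (2.30-fold, log2 1.20, SE 0.10), *Thbd* (1.64-fold, log2 0.71, SE 0.14) and *Nos3* (1.31-fold, log2 0.39, SE 0.11, adjusted p = 0.0156). The genes lower there were *Ece1* (1.78-fold lower, log2 -0.83, SE 0.09) and *Ednrb* (17.3-fold lower, log2 -4.11, SE 0.22, adjusted p = 6.56e-10). *Piezo1* was at 131 to 143 CPM in the valve class and 110 to 178 CPM in the mural class, and these ranges overlapped (log2 -0.15, SE 0.10, adjusted p = 0.297). The *Nos3* difference lost the threshold in the control libraries alone (log2 0.15, adjusted p = 0.406), without eKO replicate 1 (adjusted p = 0.125) and without eKO replicate 2 (adjusted p = 0.074). For *Piezo1*, the control libraries alone gave a log2 difference of -0.34 (adjusted p = 0.0399).

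The endothelin genes were divided between the classes. *Edn1*, which encodes the ligand, held 32.5 to 96.7 CPM in valve endocardium, 17.3 to 30.8 CPM in mural endocardium and 9.73 to 14.7 CPM in coronary endothelium. *Ece1*, the processing enzyme, held 427 to 587 CPM in mural endocardium, 254 to 324 CPM in valve endocardium and 44.1 to 78.8 CPM in coronary endothelium. *Ednrb* held 835 to 1142 CPM in mural endocardium, 31.9 to 94.3 CPM in valve endocardium and 63.8 to 98.9 CPM in coronary endothelium. *Ednra*, which encodes the other receptor, was near absent from the endothelial classes, with 1 to 16 UMIs per class and library, and held 50.2 to 73.2 CPM in cardiomyocytes, 33.7 to 57.1 CPM in smooth muscle cells or pericytes and 16.5 to 38.9 CPM in fibroblasts or mesenchymal cells. Fibroblasts or mesenchymal cells also held *Edn1*, at 9.29 to 15.7 CPM, which overlapped the coronary range, and *Ece1*, at 28.0 to 41.7 CPM.

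Coronary endothelium had the lowest level of most of the 10 genes among the endothelial classes. All 9 genes other than *Ednra* were higher in mural than in coronary endothelium, against 33.9% of the 13013 genes tested. None was lower, against 32.7%, and *Ednra* was not called (log2 0.21, SE 0.51). The ratio was largest for *Ednrb* (9.79-fold, log2 3.29, SE 0.11) and *Ece1* (7.36-fold, log2 2.88, SE 0.07), followed by *Thbd* (3.12-fold, log2 1.64, SE 0.12) and *Heg1* (2.05-fold, log2 1.04, SE 0.06). It was smallest for *Nos3* (1.19-fold, log2 0.25, SE 0.08), whose adjusted p of 0.0113 became 0.0522 without control replicate 1 and 0.122 without control replicate 2. Against coronary endothelium, valve endocardium was higher for 8 of the 9 genes tested (25.6% of the 11397 genes) and lower for 1 (25.3%), *Ednrb* (log2 -0.76, SE 0.16, adjusted p = 0.000472). This fit pooled both groups. For *Ednrb*, valve against coronary levels were 43.6 against 98.9 and 31.9 against 63.8 CPM in controls. In eKO they were 94.3 against 94.6 and 76.1 against 97.3 CPM.

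Across all 8 classes, 9 of the 10 genes had their highest mean in an endothelial class, and *Ednra* had its highest in cardiomyocytes. *Nos3* was detected almost only in endothelium, at 107 to 250 CPM in the endothelial classes and at most 6.47 CPM elsewhere. *Thbd* was at 6.06 to 59.7 CPM in the endothelial classes, at 6.204 to 9.34 CPM in immune cells, where its range overlapped the coronary range, and at most 3.37 CPM in the others. *Klf2* and *Klf4* were more widely found: immune cells held 595 to 1139 CPM of *Klf2*, above the mural range, and epicardial cells held 131 to 229 CPM of *Klf4*. *Piezo1* was also found in epicardial cells, at 79.6 to 104 CPM, and *Ednrb* in immune cells, at 119 to 164 CPM. For *Klf2*, the genes with the most similar control level over the 8 classes were *Shisa5* (Pearson r = 0.985), *Kat7* (0.984) and *Sf1* (0.978), and for *Ednrb* they were *Ndst1* (0.971), *Ptpre* (0.966) and *Gbp8* (0.955). These correlations describe 8 class means from 2 shared libraries.

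**Figure D2:**
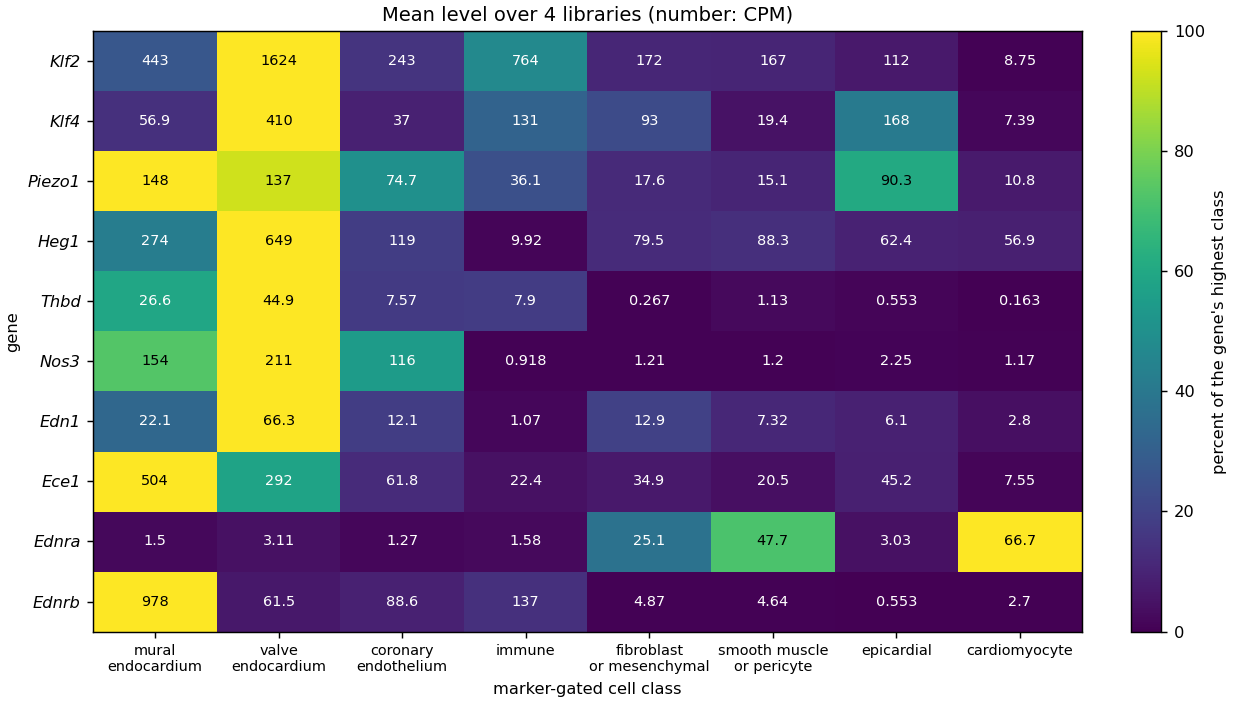
Mean level over the 4 libraries of each gene (rows) in 8 marker-gated classes (columns). Numbers are CPM, and colour gives the percent of that gene's highest class, so that *Ednra* peaks in cardiomyocytes at 66.7 CPM and *Nos3* has means of at most 2.25 CPM outside the 3 endothelial columns.

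Within coronary endothelium, 252 cells could be gated as arterial and 589 as venous by further markers, and the remaining 654 as neither. In each of the 4 libraries, *Klf2*, *Klf4*, *Piezo1*, *Thbd* and *Ednrb* were higher in the venous cells, and *Heg1*, *Nos3* and *Ece1* were higher in the arterial cells. *Edn1* was higher in the venous cells in 2 of the 4 libraries, and *Ednra* had at most 5 UMIs in a library of either gate. In arterial cells *Thbd* rested on 3 to 5 UMIs a library and *Klf4* on 4 to 25. *Klf4* was at 48.7 to 60.3 CPM in venous cells against 6.93 to 25.5 CPM in arterial cells, and *Ednrb* at 87.6 to 134 CPM against 15.6 to 60.8 CPM, so that neither range overlapped. *Klf2* was at 260 to 343 CPM against 142 to 278 CPM, which overlapped between libraries. *Heg1* was at 144 to 232 CPM in arterial cells against 93.5 to 125 CPM in venous cells. The ranges of *Piezo1* (62.1 to 103 CPM in venous and 47.3 to 79.7 CPM in arterial cells) overlapped, as did those of *Ece1* (46.1 to 68.7 and 56.6 to 104 CPM). These values are described without a test, and the share of all genes that go one way in every library was not counted.

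Loss of *Ets1* was then compared with control in each endothelial class. In mural endocardium, 1 of the 10 genes was called lower, against 1.96% of the 12873 genes tested, and 0 were called higher, against 1.72%. At an unadjusted p under 0.05, 5 of the 10 passed, against 22.1% of all genes, and DESeq2 called 0. The control and eKO libraries did not overlap for 8 of the 10 genes, all 8 lower in eKO, where 52.9% of all genes did not overlap in either direction. The median log2 fold change of the 10 genes was -0.33, beside 0.00084 over all genes.

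The called gene was *Piezo1*. Control and eKO libraries stood apart, at 177 and 178 CPM in controls, against 128 and 110 CPM after loss of *Ets1*, so that both eKO libraries lay below both controls. *Piezo1* fell by 30.5% (log2 -0.53, SE 0.13, adjusted p = 0.0477). The call rested on every library but eKO replicate 1: the adjusted p was 0.255 without control replicate 1, 0.256 without control replicate 2 and 0.187 without eKO replicate 2, with log2 fold changes of -0.56, -0.48 and -0.43. It was 0.0569 with DESeq2, 0.0529 with doublets kept and 0.0552 in cells without *Mki67* or *Top2a*, where the log2 fold changes were -0.51, -0.51 and -0.50. *Piezo1* was at its highest in control replicate 2 in 7 of the 8 classes, cells outside the endothelium included.

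*Klf4* lay just outside the threshold. It held 82.1 and 58.9 CPM in controls, against 43.8 and 42.8 CPM after loss of *Ets1* (log2 -0.65, SE 0.16, adjusted p = 0.0507). Its adjusted p was 0.0285 without control replicate 2 and 0.389 without control replicate 1, and the log2 fold change was then -0.83 and -0.42. In cells without *Mki67* or *Top2a* the adjusted p was 0.0259, under total count scaling 0.0434 and in the stricter cell filter 0.048. When low counts were not filtered it was 0.00266 (log2 -0.64). With a replicate block it was 0.0122 (log2 -0.63), though the replicate numbers did not pair the libraries. *Klf2* held 583 and 424 CPM against 348 and 415 CPM (log2 -0.34, SE 0.17, adjusted p = 0.27), and control replicate 2 and eKO replicate 2 differed by less than both pairs of replicates did. Control replicate 1 had the highest *Klf2* level of the 4 libraries in all 8 classes, and the highest *Klf4* level in 6 of them. Without that library, the *Klf2* log2 fold change in mural endocardium was -0.12.

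The other genes of mural endocardium gave the following values, with no call. *Heg1* held 334 and 297 CPM against 253 and 211 CPM (log2 -0.39, SE 0.14, adjusted p = 0.138). *Edn1* held 30.8 and 22.7 CPM against 17.3 and 17.7 CPM (log2 -0.56, SE 0.18, adjusted p = 0.112). *Ece1* held 547 and 587 CPM against 427 and 453 CPM (log2 -0.31, SE 0.14, adjusted p = 0.226). In all 3 the eKO libraries lay below the controls. *Ednrb* held 1142 and 1035 CPM against 835 and 900.4 CPM (log2 -0.27, SE 0.15, adjusted p = 0.324). *Nos3* held 161 and 166 CPM against 147 and 143 CPM (log2 -0.12, SE 0.12, adjusted p = 0.618). *Thbd* overlapped between the groups, at 28.1 and 20.6 CPM against 31.6 and 26.2 CPM (log2 0.29, SE 0.18), and *Ednra* had at most 16 UMIs in a library.

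**Figure D3:**
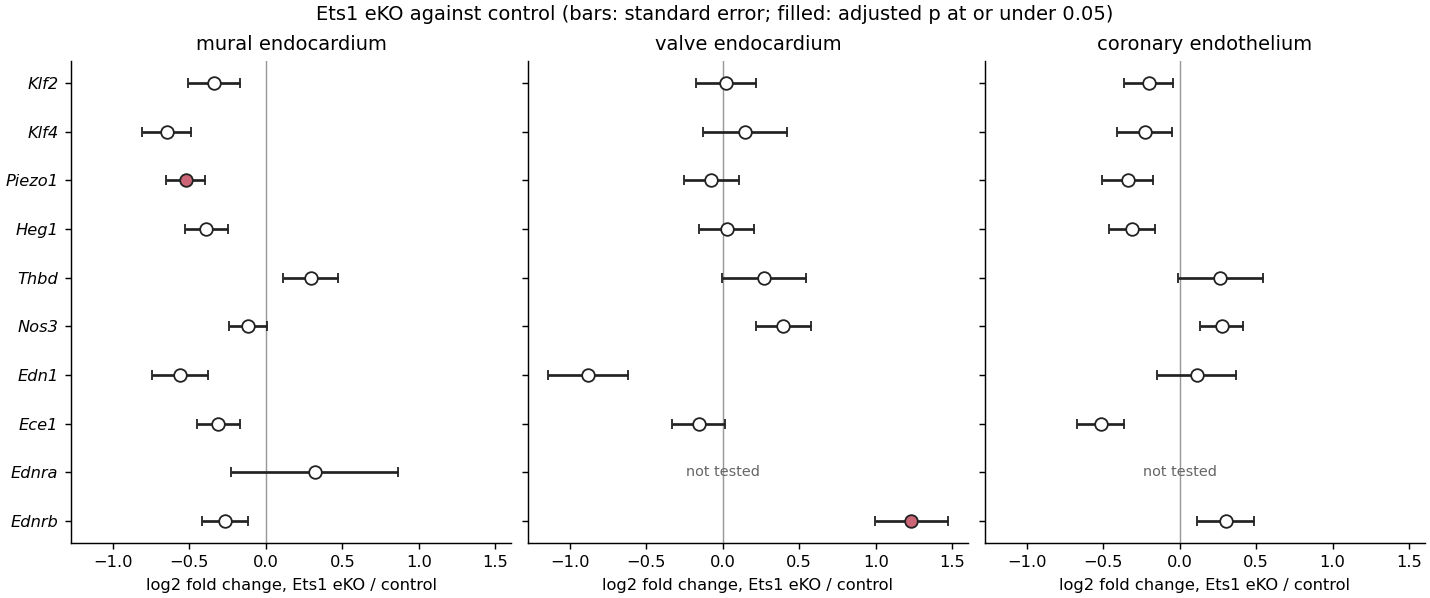
Log2 fold change of each gene in *Ets1* eKO against control, with its standard error, in the 3 endothelial classes (n = 2 libraries a group). Filled points have an adjusted p at or under 0.05: *Piezo1* in mural endocardium at -0.53 and *Ednrb* in valve endocardium at 1.23. *Ednra* was too low to be tested in the valve and coronary classes.

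Other measures moved with the groups in mural endocardium. The summed level of 8 mural endocardial markers was 4179 to 4250 CPM in the controls and 3239 to 3560 CPM in eKO, that of 8 fibroblast or mesenchymal markers 487 to 550.5 CPM and 737 to 808 CPM, and that of 8 cardiomyocyte markers 550 to 906 CPM and 919 to 1163 CPM. Both eKO libraries lay above both controls for 4 of the 8 fibroblast markers (*Col1a2*, *Col3a1*, *Dcn* and *Lum*) and for 4 of the 8 cardiomyocyte markers (*Tnnt2*, *Tnni1*, *Tpm1* and *Nexn*), and *Col1a1*, *Tcf21* and *Pdgfra* stayed at 0 to 5.35 CPM. Over all genes tested in this class, 52.9% did not overlap between the groups in either direction, so such counts of markers are no distinction. The 8 smooth muscle or pericyte markers summed to 21.3 to 22.7 CPM in the controls and 44.9 to 48.9 CPM in eKO, with *Rgs5* and *Myh11* at most 0.643 CPM. Both eKO libraries lay above both controls for 3 of these 8, *Abcc9* (5.72 and 7.72 CPM against 28.1 and 21.6 CPM), *Kcnj8* (0.746 and 0.804 CPM against 2.77 and 1.63 CPM) and *Notch3* (7.96 and 10.1 CPM against 12.6 and 15.04 CPM). They lay below both controls for *Cspg4* (1.24 and 0.965 CPM against 0.554 and 0.699 CPM) and *Myh11* (0.498 and 0.643 CPM against 0.416 and 0.233 CPM), which both rested on few UMIs. Markers of other endothelial cells separated the groups too: coronary markers summed to 133 to 146 CPM against 176 to 204 CPM, venous markers to 1119 to 1146 CPM against 873 to 924 CPM and valve markers to 202 to 208 CPM against 162 to 183 CPM. Epicardial markers were at 8.96 to 13.5 CPM and 14.3 to 14.7 CPM. The 5 lymphatic markers summed to 46.3 to 47.0 CPM in controls and 62.4 to 90.3 CPM in eKO, and of them *Lyve1* was higher in eKO (16.8 and 9.97 CPM against 74.0 and 48.7 CPM), *Flt4* was lower, and *Pdpn*, *Reln* and *Mmrn1* overlapped between the groups at no more than 2.61 CPM. The 8 immune markers summed to 6.27 to 10.1 CPM in all 4 libraries. The share of cells with a *Mki67* or *Top2a* UMI was 21.6% and 25.3% in the controls and 31.3% and 29.3% in eKO. The part of these differences in the results for the 10 genes was not tested, except that leaving out the cells with a *Mki67* or *Top2a* UMI gave the values above.

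In valve endocardium, the called gene was *Ednrb*, which was higher in eKO. It held 43.6 and 31.9 CPM (50 and 37 UMIs) in the control libraries and 94.3 and 76.1 CPM (90 and 51 UMIs) in the eKO libraries, and the groups did not overlap. *Ednrb* rose 2.35-fold (log2 1.23, SE 0.24, adjusted p = 0.0178). It was 1 of 9 genes tested called higher, against 0.235% of the 9360 genes tested, 0 were called lower, against 0.417%, and DESeq2 called 0. The eKO effect on *Ednrb* differed between valve and mural endocardium, by 1.49 on the log2 scale (SE 0.22, adjusted p = 0.000207, test of class by condition). *Ednrb* was the 1 gene of the 10 called higher in that test, against 0.397% of 12601 genes, and 0 were called lower, against 0.825%. At an unadjusted p under 0.05, 6 of the 10 passed that test, against 9.57%.

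Markers of other cells also differed between the groups in valve endocardium. The 8 fibroblast or mesenchymal markers summed to 730.3 to 773 CPM in controls against 522 to 524 CPM in eKO. Of the 8, 5 were lower in both eKO libraries (*Col3a1*, *Postn*, *Dcn*, *Pdgfra* and *Tcf21*, the last at 0 in both), and *Lum* was higher (13.1 and 7.77 CPM against 13.6 and 23.9 CPM). Over all genes tested in this class, 40.7% did not overlap between the groups in either direction. The 8 cardiomyocyte markers summed to 609 to 836 CPM against 859 to 1204 CPM, with 3 of the 8 higher in both eKO libraries (*Actc1*, *Tpm1* and *Tnni3*) and *Nexn* lower (18.3 and 24.2 CPM against 17.8 and 16.4 CPM). The arterial markers summed to 218 to 315 CPM against 131 to 134 CPM. The coronary markers summed to 63.0 to 81.0 CPM against 88.0 to 106 CPM, and the valve markers to 1663 to 2005 CPM against 2018 to 2248 CPM. The immune markers summed to 1.73 to 4.36 CPM against 8.38 to 8.95 CPM, and the epicardial markers to 11.2 to 11.3 CPM against 16.4 to 22.002 CPM. Valve endocardium held only 670049 to 1158455 UMIs a library. The immune and epicardial sums, and *Tcf21* at no more than 2.61 CPM, therefore rested on few UMIs. The part of these differences in the *Ednrb* and other valve values was not tested.

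The *Ednrb* values depended on the cells taken as valve endocardium. Under a stricter gate, which left 303 valve cells, the control libraries held 48.8 and 18.1 CPM and the eKO libraries 63.7 and 36.6 CPM, and the groups overlapped (log2 0.69, adjusted p = 0.699). The difference between valve and mural effects was then 0.97 (adjusted p = 0.407). When cells were assigned by single markers, valve cells held 618, 503, 610 and 529 CPM (log2 0.06, adjusted p = 0.951). The summed mural markers were 2222 to 3075 CPM in those cells, against 1095 to 1242 CPM in the main valve gate, where they overlapped between control (1242 and 1095 CPM) and eKO (1237 and 1139 CPM). Without control replicate 2, the adjusted p of *Ednrb* in the main valve gate was 0.111 (log2 1.01), and with DESeq2 it was 0.212. Each library of that gate had 123 to 155 cells.

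**Figure D4:**
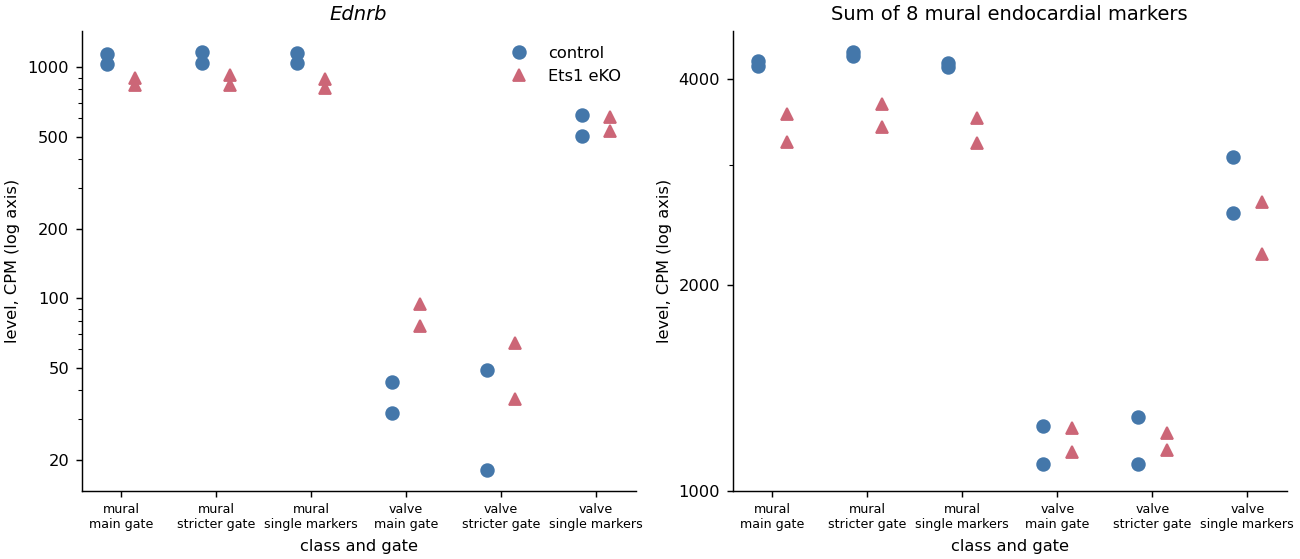
*Ednrb* (left) and the sum of 8 mural endocardial markers (right), in CPM on log axes, in mural and valve endocardium under the main gate, a stricter gate and single markers. Circles are control and triangles *Ets1* eKO libraries. Valve libraries separate in *Ednrb* under the main gate only, and valve cells chosen by single markers hold 503 to 618 CPM of *Ednrb*.

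The remaining valve values were not called. *Edn1* held 74.9 and 96.7 CPM for control, against 32.5 and 61.2 CPM for eKO, which did not overlap (log2 -0.88, SE 0.26, adjusted p = 0.166). It passed without control replicate 1 (log2 -1.04, adjusted p = 0.0338), without eKO replicate 2 (-1.35, 0.000712) and when low counts were not filtered (-0.91, 0.0251), and without eKO replicate 1 it was -0.46 and did not pass. *Nos3* held 201 and 170 CPM against 250.4 and 222 CPM (log2 0.40, SE 0.18, adjusted p = 0.44). *Klf2* (log2 0.02, SE 0.20), *Klf4* (0.14, SE 0.27), *Heg1* (0.03, SE 0.18) and *Thbd* (0.27, SE 0.27) overlapped between the groups. *Piezo1* was at 143 and 143 CPM against 132 and 131 CPM (log2 -0.07, SE 0.18), and *Ece1* at 324 and 300.4 CPM against 288 and 254 CPM (log2 -0.16, SE 0.17). In all, 5 of the 9 genes did not overlap between groups, against 40.7% of all genes, and 3 had an unadjusted p under 0.05, against 10.6%. The median log2 fold change was 0.03, beside 0.02 over all genes, and its sign and size depended on single libraries: it was 0.30 without control replicate 1, -0.09 without control replicate 2, -0.20 without eKO replicate 1 and 0.21 without eKO replicate 2. This median also depended on the processing. It was -0.018 under total count scaling, -0.032 under the stricter gate, -0.16 with single markers and 0.083 in cells without *Mki67* or *Top2a*.

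In coronary endothelium, 0 of the 9 genes tested were called lower, against 0.284% of the 11279 genes, and 0 higher, against 0.39%. DESeq2 also called 0, and 1 had an unadjusted p under 0.05, against 12.3% of all genes. That gene was *Ece1*, at 70.1 and 78.8 CPM for control, against 54.2 and 44.1 CPM for eKO (log2 -0.52, SE 0.16, adjusted p = 0.192). Without eKO replicate 1, *Ece1* (log2 -0.63, adjusted p = 0.0245) and *Piezo1* (log2 -0.54, adjusted p = 0.0442) passed. With all libraries *Piezo1* held 80.3 and 90.6 CPM against 73.8 and 54.1 CPM (log2 -0.34, SE 0.17), *Heg1* 136 and 134 CPM against 115 and 91.7 CPM (log2 -0.31, SE 0.15) and *Klf2* a log2 fold change of -0.20 (SE 0.16). *Nos3* was at 109 and 107 CPM against 129 and 119 CPM (log2 0.27, SE 0.14). For 7 of the 9 genes the groups did not overlap, 5 of them lower in eKO, against 44.8% of all genes. The median log2 fold change was -0.20, beside 0.01 over all genes. It was -0.04 without control replicate 1, -0.11 without control replicate 2, -0.06 without eKO replicate 1, -0.15 without eKO replicate 2, -0.05 when low counts were not filtered and -0.03 with single markers, with 10 members tested without either control replicate and without the filter. Marker sums separated the groups in this class as well: coronary markers were at 6496 to 7656 CPM in controls and 8292 to 9711 CPM in eKO, arterial markers at 451 to 486 and 389 to 429 CPM, venous markers at 490.4 to 500.2 and 387 to 422 CPM and erythroid markers at 64.4 to 160 and 170 to 217 CPM, and their part in the coronary values was not tested. Valve markers (50.4 to 52.6 and 39.7 to 46.5 CPM) were lower in eKO too, as were the lymphatic and immune sums, whose members did not all go one way. The lymphatic sum (71.3 to 89.0 and 51.3 to 58.8 CPM) was mostly *Flt4* (66.3 and 84.2 CPM against 52.2 and 46.9 CPM), with *Mmrn1* lower as well, *Lyve1* higher in eKO (0.36 and 0 CPM against 4.11 and 2.31 CPM), and *Pdpn* and *Reln* overlapping. The immune sum (14.3 to 19.1 and 10.0 to 13.2 CPM) was mostly *Laptm5* (14.0 and 10.8 CPM against 4.37 and 7.63 CPM), while *Lyz2* and *C1qa* were higher in eKO at no more than 1.62 CPM and the other 5 overlapped. The fibroblast, cardiomyocyte and mural sums overlapped.

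The eKO effect was also compared between the other pairs of classes. *Ednrb* differed between mural and coronary endothelium by -0.55 on the log2 scale (SE 0.13, adjusted p = 0.0125), from values of -0.27 in the mural and 0.30 in the coronary class. It was 1 of 10 genes called lower, against 1.07% of genes, with 0 called higher, against 1.31%, and 4 of the 10 had an unadjusted p under 0.05, against 12.6%. This call was lost without control replicate 2 (log2 -0.33, adjusted p = 0.0888), without eKO replicate 1 (-0.55, 0.0885) and without eKO replicate 2 (-0.60, 0.209). For *Nos3* the same difference was -0.37 (SE 0.11, adjusted p = 0.0697). Between valve and coronary effects 0 of 9 genes were called in either direction, against 0.518% lower and 0.114% higher, and 3 had an unadjusted p under 0.05, against 8.31%. *Ednrb*, at 0.90 (adjusted p = 0.0725), was called there without eKO replicate 2 (1.07, adjusted p = 0.0113) and when low counts were not filtered (adjusted p = 0.0402). The eKO effect on *Klf4* differed by 0.75 between valve and mural endocardium (SE 0.22, adjusted p = 0.091), and by 1.07 without control replicate 1 (adjusted p = 1.02e-05), 1.17 without eKO replicate 2 (adjusted p = 0.000991) and 0.76 when low counts were not filtered (adjusted p = 0.000613). For *Klf2* the difference was 0.37 (SE 0.14, adjusted p = 0.313), and 0.52 without control replicate 1 (adjusted p = 0.00553). The same difference also passed for *Nos3* without control replicate 1 (0.68, adjusted p = 0.0326) and for *Heg1* without control replicate 2 (0.56, adjusted p = 0.018), and without control replicate 2 *Edn1* passed between mural and coronary effects (-1.10, adjusted p = 0.0309). With all libraries these 3 were 0.49, 0.38 and -0.69, with adjusted p-values of 0.245, 0.336 and 0.231.

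Shares of cells with a UMI were compared after thinning every cell to 2000 UMIs, since libraries differed in depth. In mural endocardium, 51.6% and 45.6% of control cells had a *Klf2* UMI, and 37.2% and 43.3% of eKO cells. For *Piezo1* the shares were 28.3% and 29.1% against 21.7% and 19.5%. For *Ednrb* they were 81.9% and 80.4% against 73.5% and 75.7%, and in valve endocardium 9.17% and 4.03% against 14.6% and 11.6%. In each of these 4 comparisons the libraries of the groups did not overlap, for which the exact two-sided permutation p is 0.33, the smallest that 2 against 2 libraries allow. At 1000 UMIs per cell, the mural shares of *Klf2*, *Klf4* and *Ednrb* overlapped between the groups. Those of mural *Piezo1*, valve *Ednrb* and valve *Edn1* did not. Cardiomyocytes, as cells that should largely lack these genes, had a UMI of *Klf2* in 1.11% to 2.03% of thinned cells, of *Piezo1* in 1.88% to 2.14% and of *Ednrb* in 0.342% to 0.577%. Thinning left out 26 to 99 mural cells and 3 to 17 valve cells a library. Unthinned, the mural *Klf2* shares were 73.6% and 70.03% in controls and 65.9% and 61.1% in eKO, and the valve *Ednrb* shares 17.1% and 12.5% against 21.8% and 20.0%. The counting intervals (exact Clopper-Pearson, 95%) of the valve *Ednrb* shares overlapped between groups, from 1.32% to 9.16% in control replicate 2 to 8.91% to 22.1% in eKO replicate 1.

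The other genes of the pathway were taken from lists. Of 13 genes of the CCM, MEKK3 and ERK5 route upstream of *Klf2* and *Klf4* (among them *Krit1*, *Map3k3*, *Mapk7* and *Mef2c*), 0 were called in any endothelial class, by edgeR or DESeq2. The list holds CCM genes, which restrain *Klf2* and *Klf4*, beside kinases and MEF2 factors, which induce them. At an unadjusted p under 0.05, 3 were lower in mural endocardium (22.1% of all genes passed in either direction), 2 lower and 1 higher in valve endocardium (10.6%) and 2 lower in coronary endothelium (12.3%). The list median was -0.21 in mural endocardium, 0.03 in valve endocardium and -0.11 in coronary endothelium. Of 10 other Krüppel-like factors, 9 were tested in mural endocardium, and 0 were called (3 lower at an unadjusted p under 0.05, 0 with DESeq2, median -0.32). Of 10 clotting genes of the vessel wall, 6 were tested there, and 0 were called (2 lower at an unadjusted p under 0.05, 0 with DESeq2). Of 6 further endothelin genes, such as the other ligands, 0 were high enough to be tested in mural or coronary endothelium and 1 in valve endocardium, where it was not called (lower at an unadjusted p under 0.05, 0 with DESeq2). Outside mural endocardium, 0 genes were called of the lists of other Krüppel-like factors, clotting, flow sensing, flow induction, and nitric oxide and cGMP. Of each of these lists at most 4 were lower and at most 3 higher there at an unadjusted p under 0.05, and DESeq2 called 0.

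Some flow-related genes did pass the test in mural endocardium. Of 13 tested genes of flow sensing at the membrane and junctions, 2 fell, the receptors *Flt4* and *Kdr*, where 1.96% of all genes were called lower. *Kdr*, which encodes the main VEGF receptor, held 301 and 340.4 CPM for control, against 221 and 187 CPM for eKO (log2 -0.60, SE 0.14, adjusted p = 0.0438). *Flt4*, a VEGF receptor best known from lymphatic vessels, held 26.1 and 34.7 CPM against 14.3 and 10.96 CPM (log2 -1.22, adjusted p = 0.00977). Of 13 tested genes known to be induced by flow or by *Klf2*, 2 fell (1.96% of all genes), both of BMP signalling: *Smad6*, an inhibitory SMAD, from 132 and 115 CPM to 70.1 and 56.3 CPM (log2 -0.91, adjusted p = 0.00556), and *Acvrl1*, the ALK1 receptor, from 8.58 and 9.97 CPM to 3.60 and 2.91 CPM (log2 -1.45, adjusted p = 0.0177). At an unadjusted p under 0.05, which 22.1% of all genes passed in either direction, 5 genes of each list were lower. In the flow-induced list 1 gene was higher at that level, *Tek* (log2 0.48, adjusted p = 0.0926), and DESeq2 called 2 lower and 1 higher. Without eKO replicate 2 the adjusted p was 0.133 for *Flt4*, 0.187 for *Kdr*, 0.0606 for *Smad6* and 0.148 for *Acvrl1*. Without control replicate 1 it was 0.143 for *Kdr* and 0.0626 for *Smad6*, and without control replicate 2 it was 0.304 for *Kdr* and 0.0644 for *Acvrl1*.

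Beside *Nos3*, 2 of 8 tested genes of nitric oxide and cGMP signalling rose in mural endocardium, where 1.72% of all genes were called higher. At an unadjusted p under 0.05, 3 of the 8 were higher, against 22.1% of all genes in either direction, and DESeq2 called 1 higher. *Gucy1a1*, a subunit of the soluble guanylate cyclase that nitric oxide activates, held 44.8 and 36.7 CPM for control, against 88.1 and 70.2 CPM for eKO (log2 1.01, SE 0.16, adjusted p = 0.00534), and it passed with each library left out. *Nostrin*, whose protein is known to move the synthase away from the membrane, held 17.5 and 18.5 CPM against 30.9 and 27.6 CPM (log2 0.75, SE 0.16, adjusted p = 0.0315). *Nostrin* lost the threshold without any 1 library, with adjusted p-values of 0.218 and 0.0644 without control replicates 1 and 2 and 0.0643 and 0.111 without eKO replicates 1 and 2, and it was 0.0541 with DESeq2. Of the flow-repressed genes, 6 were tested in mural endocardium and 0 were called (1 lower and 2 higher at an unadjusted p under 0.05, 0 with DESeq2), and of 4 tested in valve endocardium 1 fell (0.417% of all genes), *Ccn1*, a matricellular gene, from 83.6 and 69.1 CPM to 33.5 and 34.3 CPM (log2 -1.12, SE 0.24, adjusted p = 0.0374). In coronary endothelium 9 flow-repressed genes were tested and 0 were called, with a median of 0.31. There 3 were higher and 0 lower at an unadjusted p under 0.05 (12.3% of all genes in either direction), *Apln* (log2 0.74), *Ccl2* (1.14) and *Vcam1* (0.74), and DESeq2 called 0. The number of flow-repressed genes called lower in valve endocardium was 2 without control replicate 2 and 2 without eKO replicate 2. The *Ccn1* call was lost without control replicate 1 (adjusted p = 0.141), with DESeq2 (0.469), under the stricter gate (0.463), with single markers (0.385), in the stricter cell filter (0.0955) and in cells without *Mki67* or *Top2a* (0.105). The log2 fold change was -0.71 with single markers and -0.97 to -1.23 in the others of these settings.

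**Figure D5:**
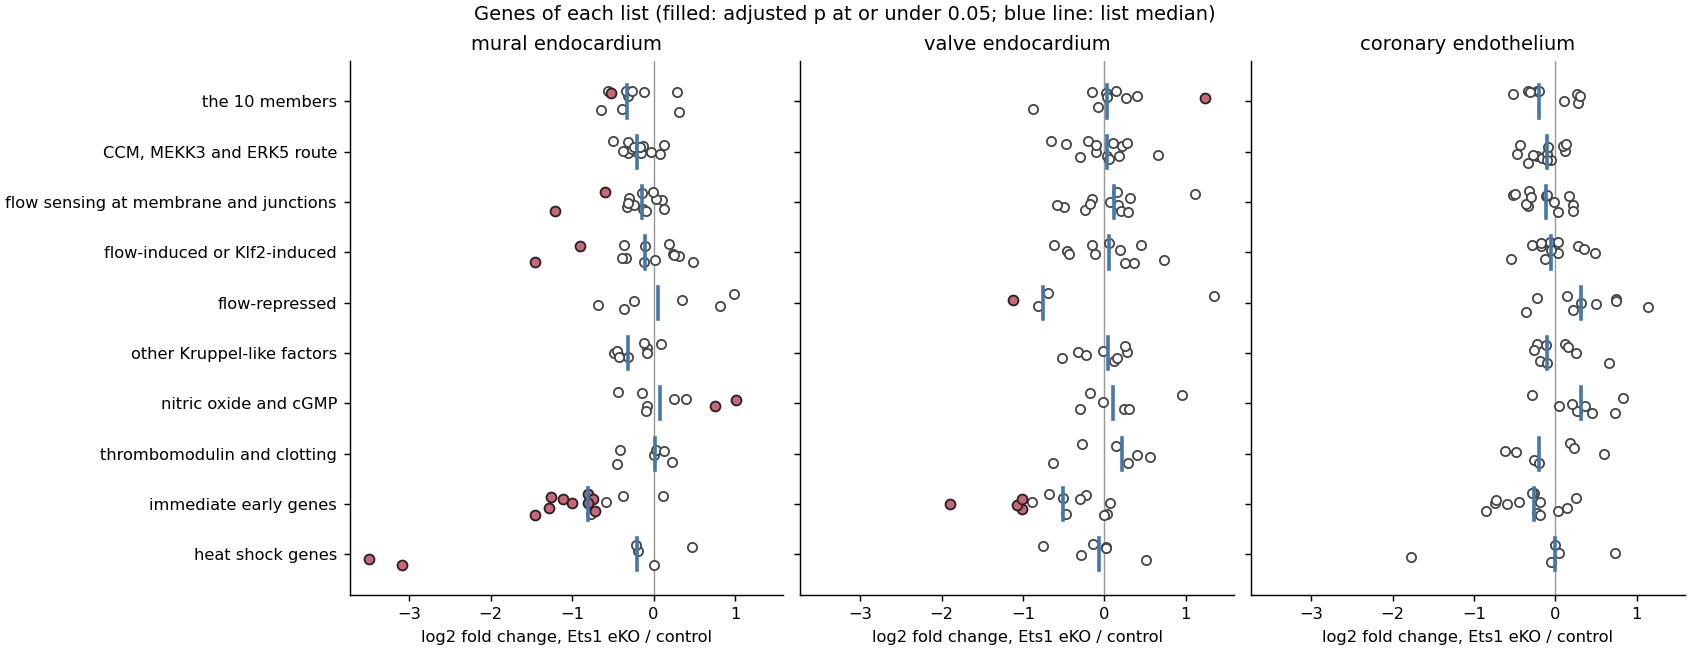
Log2 fold change in *Ets1* eKO against control of every tested gene in each list, by endothelial class. Each point is a gene, filled where the adjusted p is at or under 0.05, and blue lines are list medians. The immediate early genes have medians of -0.80, -0.51 and -0.26 in the mural, valve and coronary classes.

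Immediate early genes, which respond within minutes to flow and also to tissue dissociation, moved with the groups in the endocardium. In mural endocardium 9 of 13 fell and 0 rose, beside 1.96% and 1.72% of all genes, with a median log2 fold change of -0.80, and among them were *Fos* (307 and 213 CPM against 111 and 97.2 CPM, log2 -1.26) and *Fosb* (47.3 and 46.5 CPM against 13.7 and 19.0 CPM, log2 -1.45). In valve endocardium 4 fell (0.417% of all genes), *Zfp36*, *Egr1*, *Junb* and *Btg2*, with log2 fold changes of -1.89, -1.08, -1.01 and -1.01 and a list median of -0.51. Without control replicate 1 these 4 were -1.11, -0.63, -0.57 and -0.71. In cells without *Mki67* or *Top2a* they were -1.77, -1.18, -1.24 and -1.07, and under the stricter gate -1.76, -0.87, -1.09 and -0.94. In coronary endothelium 0 of the 13 were called (5 lower at an unadjusted p under 0.05, against 12.3% of all genes in either direction, 1 called with DESeq2, median -0.26). The number called in mural endocardium was 3 without control replicate 1, 4 without eKO replicate 2, 6 without control replicate 2 and 8 without eKO replicate 1, and in valve endocardium it was 0 without control replicate 1, 1 with DESeq2, 2 in the stricter cell filter and 0 under the stricter gate and in cells without *Mki67* or *Top2a*. Their summed level in mural endocardium was 2208 and 1833 CPM for control, against 1115 and 1313 CPM for eKO, and it was highest in control replicate 1 in 7 of the 8 classes, as *Klf2* was in all 8. Of 6 heat shock genes 2 fell in mural endocardium (1.96% of all genes), *Hspa1a* (56.2 and 17.4 CPM against 2.49 and 3.73 CPM) and *Hspa1b* (60.2 and 29.3 CPM against 5.403 and 4.78 CPM). In valve endocardium 6 were tested and 0 called (1 higher at an unadjusted p under 0.05, against 10.6% of all genes, 0 with DESeq2). In coronary endothelium 5 were tested and 0 called (1 lower and 1 higher at that level, against 12.3%, 0 with DESeq2). The *Hspa1a* call was lost without eKO replicate 2 (adjusted p = 0.0935). *Klf2*, *Klf4* and *Edn1* are themselves known to respond quickly to such stimuli. The part of the immediate early and heat shock response in the values of the 10 genes was not tested.

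Outside the endothelial classes, 0 of the 10 genes were called in eKO against control by edgeR. The percent of genes called lower and higher was 0.00626% and 0% in cardiomyocytes, 0.0278% and 0.00696% in fibroblasts or mesenchymal cells, 0% and 0.114% in immune cells, and 0% in epicardial cells and in smooth muscle cells or pericytes. At an unadjusted p under 0.05, 4 of 9 genes passed in fibroblasts or mesenchymal cells (10.1% of all genes), 2 of 5 in epicardial cells (5.31%), 1 of 6 in immune cells (5.06%), 1 of 6 in smooth muscle cells or pericytes (4.44%) and 0 of 9 in cardiomyocytes (12.3%). None of the values that passed at an unadjusted p under 0.05 was called by DESeq2, where the lowest adjusted p was 0.249, for *Ednra* in fibroblasts or mesenchymal cells. In fibroblasts or mesenchymal cells, *Ednra* held 25.6 and 38.9 CPM for control, against 19.5 and 16.5 CPM for eKO (log2 -0.74, SE 0.20, adjusted p = 0.289, but 0.00511 without control replicate 1 and 0.0236 without eKO replicate 1) and *Edn1* 11.1 and 9.29 CPM against 15.7 and 15.4 CPM (log2 0.69, SE 0.17, adjusted p = 0.255). In cardiomyocytes, the main class with *Ednra*, its level was 70.9 and 73.2 CPM against 72.5 and 50.2 CPM (log2 -0.11, SE 0.16). In smooth muscle cells or pericytes, *Klf4* rested on 38 and 20 UMIs in the controls and 2 and 2 in eKO (adjusted p = 0.931, and 0.0238 without control replicate 2). *Klf2* in immune cells was at 1139 and 698 CPM against 595 and 626 CPM (log2 -0.57, SE 0.22, adjusted p = 0.947), and -0.18 on the log2 scale without control replicate 1.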

How the data were processed

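Ventricles of *Tie2*Cre;*Ets1* fl/+ and *Tie2*Cre;*Ets1* fl/fl embryos were dissociated and sequenced by the 10x method. The authors deposited whole-number UMI counts per gene and barcode (Cell Ranger 7.1.0, build mm10), and their notes also name Seurat 4.3.0. Their methods include correction for ambient RNA with CellBender, and whether the deposited counts precede it is not given in the sources used here, so free RNA may be part of low values. Here, barcodes were kept where they had 200 to 7000 genes and where mitochondrial UMIs made up no more than 20%, ribosomal 35% and haemoglobin 2%, and doublets called from simulated pairs were removed. Cells were classed by summed markers (8 genes a class, 5 for arterial and for venous cells), with gate thresholds set after the cells were seen. For each class, the UMI sums of the 4 libraries entered the quasi-likelihood test of edgeR 4.0.16 under R 4.3.3, after filterByExpr and TMM scaling, with 2 libraries a group. Benjamini-Hochberg adjustment ran over all genes (threshold 0.05). Differences between classes had library as a term. DESeq2 1.42.0, other scalings, gates and cell filters were alternatives. Intervals cover counting error only. The genes named are the 10 members, and genes of the lists called in a class, up to 4 a list by size of change. *Tek*, *Apln*, *Ccl2*, *Vcam1* and the single cell type markers were named after their values were seen. The members and lists were chosen with earlier results of these data known. The p-values measure the spread between pools. On simulated counts, changes of 1 on the log2 scale were called for 75 of 100 genes in mural endocardium, 37 in valve endocardium and 61 in coronary endothelium, and changes of 0.5 for 13, 2 and 8.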

Additional observations from a re-analysis of the deposited data

Results flagged for a closer look

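The difference in the *Ets1* eKO effect on *Ednrb* between valve and mural endocardium was 1.49 on the log2 scale by the test of class by condition, and it is listed because the effect in the classes differed by that test. With each library left out it remained past the threshold, and under the stricter gate it was 0.97 with an adjusted p of 0.407. The difference on *Ednrb* between mural and coronary endothelium was -0.55, listed for the same reason, and it lost the threshold when control replicate 2, eKO replicate 1 or eKO replicate 2 was left out, with values of -0.33, -0.55 and -0.60 and adjusted p-values of 0.0888, 0.0885 and 0.209. Groups of 2 libraries are too small for a test of single libraries that stand apart.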

How the results depend on the processing

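Of the 10 genes, 1 was lower in eKO in mural endocardium. That number was 0 with DESeq2 and with doublets kept, and 2 under total count scaling, with no filter on low counts and in the stricter cell filter. In valve endocardium 1 gene was higher, and 0 were with DESeq2, under the stricter gate and with single markers, while with no filter 1 was lower in place of 0. With 1 library left out, where the lone sample is assumed to vary like the others, 0 to 1 were lower in mural endocardium, 0 to 1 lower and 0 to 1 higher in valve endocardium and 0 to 2 lower in coronary endothelium.

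The replicate numbers did not pair the samples: the correlation of same-numbered libraries' deviations was 0.020 in mural, -0.024 in valve and -0.089 in coronary cells. With a replicate block, 2 of the 10 genes were lower in mural endocardium, and 953 genes in all were called there in place of 473, 117 in place of 61 in valve endocardium and 212 in place of 76 in coronary endothelium.

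Values near 0 changed sign. In valve endocardium *Klf2* was -0.018 under total count scaling, -0.0096 with no filter, -0.048 under the stricter gate and -0.16 with single markers. *Heg1* there was -0.018, -0.0039, -0.032 and -0.21 under these settings and -0.073 in cells without *Mki67* or *Top2a*, and *Klf4* was -0.050 with single markers. In coronary cells without *Mki67* or *Top2a*, *Klf4* was 0.019 and *Edn1* -0.72, and *Ednra* in mural endocardium was -0.070 with doublets kept. Without 1 library, *Klf2* ranged from -0.29 to 0.41, *Heg1* from -0.20 to 0.21, *Klf4* from -0.42 to 0.72 and *Thbd* from -0.20 to 0.55 in valve endocardium, *Klf4* from -0.40 to 0.016 and *Edn1* from -0.21 to 0.39 in coronary endothelium, *Ednra* from -0.17 to 1.37 in mural endocardium, and the mural to coronary difference of *Ednra* from -0.43 to 0.38. The cause of these changes was not tested.

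Over all genes, the 473 calls in mural endocardium became 1219 with no filter and 104 to 704 without 1 library. The 61 in valve endocardium became 24 with DESeq2, 189 with no filter, 17 under the stricter gate, 20 in cells without *Mki67* or *Top2a* and 73 to 216 without 1 library. The 76 in coronary endothelium became 122 under total count scaling, 332 with no filter, 33 in cells without *Mki67* or *Top2a* and 137 to 630 without 1 library. Total count scaling moved the median of all genes to -0.06 in mural, -0.03 in valve and -0.07 in coronary cells. It changed the calls from 252 lower and 221 higher to 358 and 181 in mural endocardium, and from 32 and 44 to 73 and 49 in coronary endothelium. Among the 3 endothelial classes, summed UMIs were fewest in valve endocardium, where single genes rested on 1 to 2308 UMIs a library.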
